A study of Homo sapiens with 4 samples.

Results

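FN1-high cells were chosen by their own FN1 reading and were, in each library, the 15% of cells with the most fibronectin (FN1) counts per 10000 gene counts, and they numbered 183 of 1220 single U-2 OS cells. They were compared with the 611 FN1-low cells, those at or below the FN1 median of their library, and the 426 cells in between were left out of the tests. U-2 OS is an established human osteosarcoma line, so every group shared 1 cell line and the results hold for that line. The IR libraries held cells that received 4 Gy of ionizing radiation and, by the series' design text, were sorted 48 h later (1 protocol field of the labels reads 24 h), and the UT libraries held untreated cells. Each treatment was done in 2 experiments with 1 library each. There were 37 and 37 FN1-high cells against 124 and 124 FN1-low cells in the IR libraries of experiments 1 and 2, and 54 and 55 against 179 and 184 in the UT libraries.

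Fibronectin is a large secreted glycoprotein that cells assemble into fibrils through integrins, and the fibrils carry collagens, latent TGF-beta and other matrix proteins. In bone, osteoblasts and their precursors lay down a matrix rich in type I collagen, and mesenchymal cells raise FN1 and collagens in response to TGF-beta. Cells differ in how much matrix they make, and whether the cells richest in FN1 also carry other transcripts, and carry the same ones after irradiation as without it, was the question put to these data.

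FN1 chose the cells, so its own values are a description. FN1 averaged 1432 and 2038 CPM (counts scaled to 1e6 per sum of cells) over the FN1-high cells of the IR libraries, against 86.1 and 137 CPM in their FN1-low cells, and 856 and 896 CPM, against 58.9 and 75.6 CPM, in the UT libraries. FN1-high cells held 54.0% and 47.2% of all FN1 counts of the IR libraries and 50.3% and 46.2% of those of the UT libraries. The tiers were cut from a continuous range. In the IR libraries the lowest FN1-high cell had 7.25 and 11.9 FN1 counts per 10000 and the highest cell outside the tier 7.23 and 11.9, and in the UT libraries the values were 4.54 and 5.39 inside and 4.39 and 5.38 outside, with 8, 14, 12 and 13 cells within 10% of the boundary in IR 1, IR 2, UT 1 and UT 2. No FN1 count at all was seen in 13.8% and 6.85% of IR cells and in 19.6% and 13.1% of UT cells. Over all its cells a library held 1.64-fold (experiment 1) and 2.05-fold (experiment 2) more FN1 in IR than in UT, and 24.7% (95% exact binomial interval 19.4% to 30.6%) and 31.9% (26.1% to 38.0%) of IR cells lay above the FN1-high boundary of the UT library of the same experiment. FN1-high cells of the IR libraries thus averaged more FN1 than FN1-high cells of the UT libraries.

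**Figure D1:**
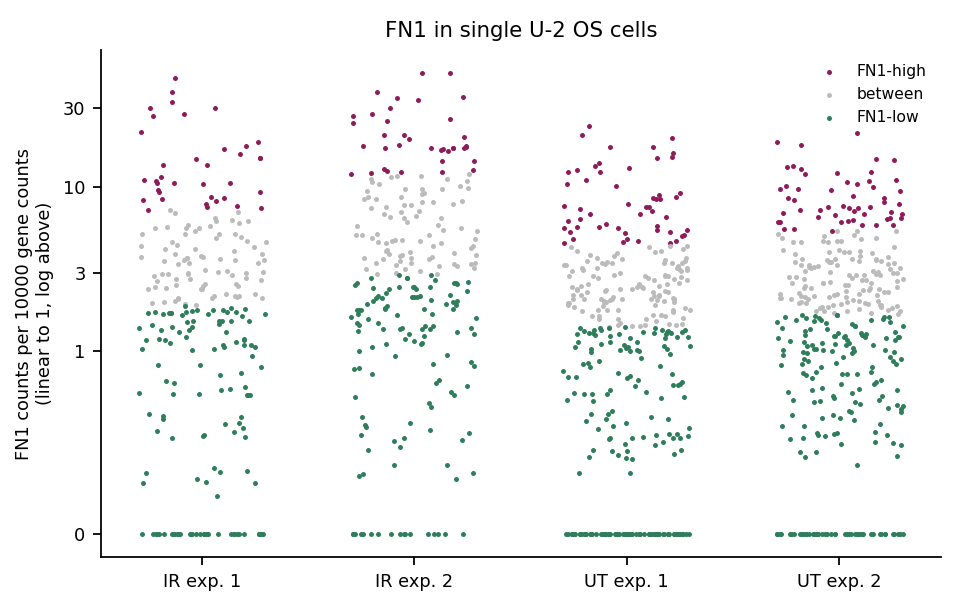
FN1 counts per 10000 gene counts (vertical axis, linear up to 1 and logarithmic above) in every cell of the 4 libraries, coloured by tier. Cells fill the range without a gap in each library, and the IR boundaries (7.25 and 11.9) sit above the UT boundaries (4.54 and 5.39).

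The FN1 gene lies on the minus strand of chromosome 2 (GRCh38, 215360440 to 215436073, GENCODE 44). The 250 bases before its RefSeq transcript start (GRCh38.p14, chr2:215436069-215436318, minus strand) are shown because they carry a full cyclic-AMP response element, TGACGTCA, the site bound by CREB and ATF factors, whose letters are in capitals. The element starts 183 bases before the transcript start, and 1.82% of 22114 RefSeq promoter windows of this length, and 3.34% of the 6833 that belong to genes tested, held it (the word reads the same on both strands). A match is a description of the sequence and no evidence of binding.
FN1: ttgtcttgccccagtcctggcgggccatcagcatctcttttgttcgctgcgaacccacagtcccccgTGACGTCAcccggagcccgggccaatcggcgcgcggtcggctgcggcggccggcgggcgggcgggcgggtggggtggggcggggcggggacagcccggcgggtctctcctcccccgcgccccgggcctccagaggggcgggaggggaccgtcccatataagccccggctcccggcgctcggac

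FN1-high cells were poorer in cell cycle transcripts in all 4 libraries. Counts of S phase genes had a median of 16.4 and 13.2 per 10000 in the FN1-high cells of the IR libraries, against 50.1 and 47.0 in their FN1-low cells, and 48.4 and 49.6, against 70.1 and 68.7, in the UT libraries. Counts of G2 and M phase genes had medians of 13.4 and 11.9 per 10000, against 50.6 and 52.2, in IR and 28.6 and 29.0, against 81.0 and 84.1, in UT. Median gene counts per cell were 20158 and 18535 in FN1-high cells, against 18679 and 22134 in FN1-low cells, in IR, and 14068 and 16351, against 16236 and 18063, in UT. The mitochondrial share was higher in FN1-high cells of each library (2.66%, 3.98%, 5.51% and 5.11%, against 2.46%, 2.86%, 4.09% and 4.37% in FN1-low cells of IR 1, IR 2, UT 1 and UT 2). Gene counts per spike-in count were lower in FN1-high cells of each library. Their medians were 476, 78.4, 293 and 68.8, against 481, 98.6, 335 and 80.4 in FN1-low cells, in the same order. With 4 libraries an exact two-sided sign-flip permutation test cannot go below p = 0.125. S phase, G2 and M phase and mitochondrial counts and gene counts per spike-in count all reached that floor. Depth gave p = 0.25 in the exact two-sided sign-flip permutation test. To lessen the gap in cycle genes, the comparison was repeated among the cells below their library's median of S, G2 and M phase counts, with tiers redrawn there (18, 19, 27 and 27 FN1-high against 62, 62, 90 and 92 FN1-low cells), called low-cycle cells here. That setting has fewer cells and its tiers still differed in G2 and M phase genes (list median -0.65), so calls lost in it do not measure the part of the cycle. Of 11025 genes tested there, 2.93% were higher and 3.03% lower over the 4 libraries, 3.66% and 3.56% within IR, and 1.41% and 1.32% within UT. The parts of depth, gene counts per spike-in count and mitochondrial share in the results were not tested. The libraries held 5736340 to 6810080 counts, 6 of 25 markers of other cell types (blood, endothelial, muscle and fat cells among them) passed the filter on low counts with a summed level of 103 to 143 CPM in FN1-high cells, against 65.6 to 95.6 CPM in FN1-low cells (their part in the results was not tested), and 376 distinct barcodes named the 1220 cells, 161 of them in all 4 libraries.

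Counts were summed over the cells of each tier in each library, and the 8 sums were tested gene by gene with FN1 left out (edgeR quasi-likelihood test, library as a block, Benjamini-Hochberg adjusted p under 0.05 over 12639 genes). Log2 fold changes are FN1-high over FN1-low over the 4 libraries unless a treatment is named, and values of 4 libraries follow the order IR 1, IR 2, UT 1 and UT 2. Higher in FN1-high cells were 1087 genes (8.6% of those tested) and lower were 1235 (9.77%), and 2183 of these 2322 genes went the same way in all 4 libraries. Over all genes tested, 16.5% were higher and 20.9% lower in every library, and the median log2 fold change was -0.01. The counts were 696 and 717 without IR 1, 750 and 802 without IR 2, 823 and 907 without UT 1, and 917 and 957 without UT 2. DESeq2 called 469 and 448.

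TNFRSF11B and TGFBI had been put forward with FN1 as markers of this state. They were chosen with earlier results of these data known, so their values here are no independent check. Over the 4 libraries TNFRSF11B was called higher in FN1-high cells and TGFBI was not called. TNFRSF11B encodes osteoprotegerin, the decoy receptor that osteoblasts secrete to hold back osteoclast formation, and measured 202 and 253 CPM in the FN1-high cells of the IR libraries, against 44.8 and 45.6 CPM in their FN1-low cells, and 41.1 and 103 CPM, against 26.05 and 38.1 CPM, in the UT libraries. Its log2 fold change was 1.85 ± 0.28 (SE), adjusted p = 0.0081, and it was lost among low-cycle cells (1.56, adjusted p = 0.059) and after thinning, with values of 1.42 to 2.11 over 18 alternatives. TGFBI, a secreted matrix protein induced by TGF-beta, measured 119 and 97.9 CPM in the FN1-high cells of the IR libraries, against 173 and 245 CPM in their FN1-low cells, and 123 and 177 CPM, against 146 and 116 CPM, in the UT libraries. It was lower in FN1-high cells of both IR libraries and of UT 1 and higher in UT 2, and over the 4 libraries its log2 fold change was -0.34 ± 0.38 (SE), adjusted p = 0.63. Within IR alone TGFBI fell (log2 fold change -0.92, adjusted p = 0.022), and among low-cycle cells it fell over the 4 libraries (-1.21, adjusted p = 0.0089). The state is named here by FN1 alone.

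Collagens were the list that stood highest. Of 20 collagen chains tested, 13 rose in FN1-high cells and none fell, with a median log2 fold change of 0.99. COL6A3, a chain of the microfibrillar type VI collagen, measured 299.9 and 250.4 CPM in the FN1-high cells of the IR libraries, against 25.04 and 35.2 CPM in their FN1-low cells, and 153 and 118 CPM, against 23.3 and 34.4 CPM, in the UT libraries. Its levels in the tiers did not overlap, and the log2 fold change was 2.74 ± 0.29 (SE), adjusted p = 0.0027, a call lost only when the lowest 15% of cells served as FN1-low. COL4A1 and COL4A2, the chains of basement membrane collagen IV, rose by 1.20 and 1.08 on the log2 scale, COL6A1 by 1.09 and COL11A1, a fibril-nucleating chain, by 1.20 (adjusted p of 2.6e-09, 2.4e-10, 1.7e-09 and 2.1e-09). COL1A1, the main bone collagen chain, measured 2765 and 2568 CPM in the FN1-high cells of the IR libraries, against 1844 and 1346 CPM in their FN1-low cells, and 3329 and 2256 CPM, against 2199 and 1369 CPM, in the UT libraries, a log2 fold change of 0.71 ± 0.06 (SE), adjusted p = 1.2e-09. COL1A1 was already abundant in FN1-low cells and its counts neared the ceiling that short molecular identifiers set. Among low-cycle cells 11 of 20 collagen chains still rose, with a median of 0.74.

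Transcripts of many other matrix proteins were higher in FN1-high cells. Of 36 matrix glycoproteins 19 rose and 1 fell (median 0.63). LAMB1, a laminin chain, measured 184, 187, 141 and 81.7 CPM in FN1-high cells, against 55.7, 57.6, 55.2 and 38.8 CPM in FN1-low cells in IR 1, IR 2, UT 1 and UT 2, a log2 fold change of 1.49 ± 0.12 (SE), adjusted p = 1.7e-09. SRPX rose by 1.21, LTBP2, a latent TGF-beta binding protein family member of elastic microfibrils, by 1.10, and MFAP2, a microfibril component, by 0.93 on the log2 scale. Of 26 genes for collagen modification and crosslinking 14 rose and none fell (median 0.34), among them P3H1, a prolyl hydroxylase (0.73), TGM2, a transglutaminase that crosslinks fibronectin (0.64), BMP1, the procollagen C-proteinase (0.61), and PPIB, the collagen-folding cyclophilin (0.34). In this list 15 genes rose within IR and 2 within UT, and 1 gene of the list, PLOD1, passed the test of the difference between treatments. HAS2, which makes hyaluronan, measured 30.5, 36.9, 29.5 and 30.5 CPM in FN1-high cells, against 9.17, 9.12, 12.5 and 11.1 CPM in FN1-low cells (log2 fold change 1.60), and 7 of 20 proteoglycan and hyaluronan genes rose, with none lower. Among low-cycle cells 8 of 34 matrix glycoproteins rose and 2 fell (median 0.36), and 1 of 20 proteoglycan and hyaluronan genes rose (median 0.14).

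**Figure D2:**
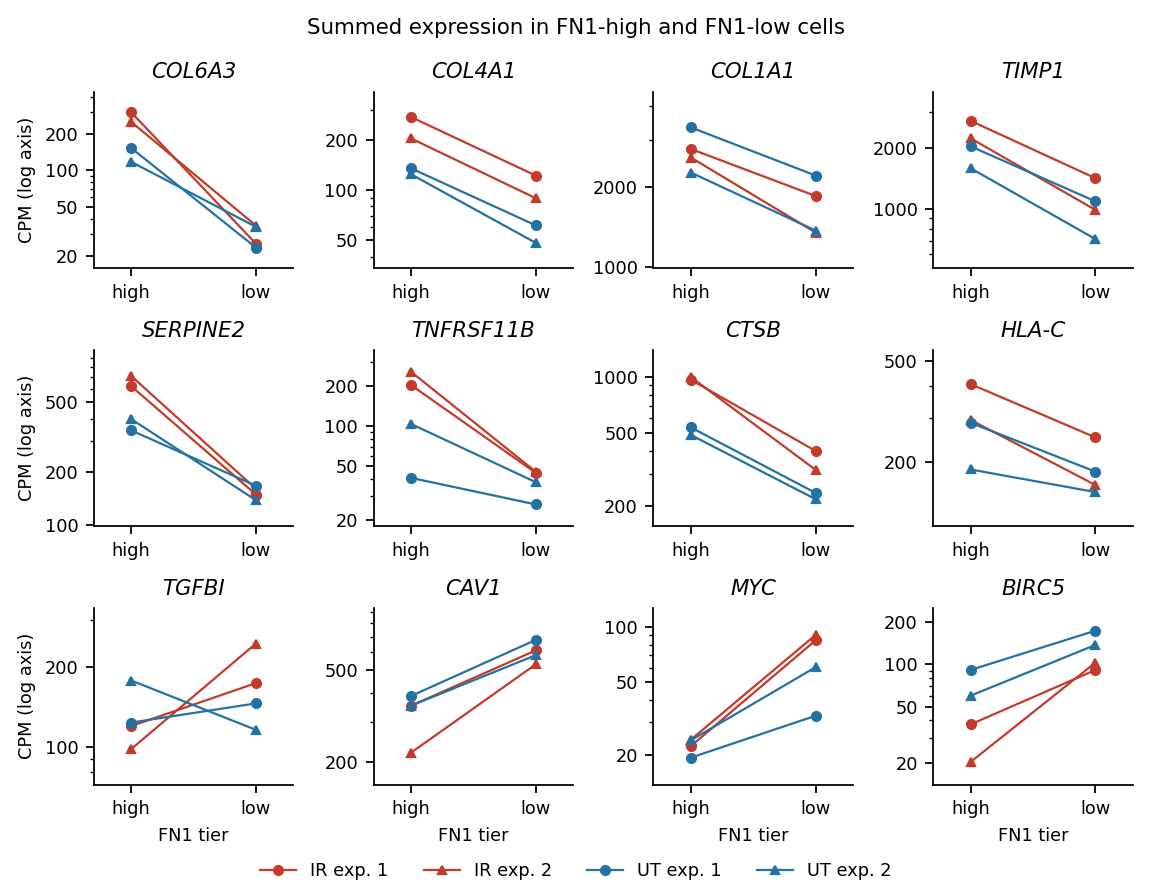
CPM (vertical axes, logarithmic) of 12 genes in the summed FN1-high (left) and FN1-low (right) cells of each library, with IR in red, UT in blue, experiment 1 as circles and experiment 2 as triangles. The lines of the 8 genes from COL6A3 to HLA-C fall towards FN1-low cells in every library, those of CAV1, MYC and BIRC5 climb in every library, and those of TGFBI cross.

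Receptors for fibronectin and proteins that turn the matrix over followed the same direction. Of 24 integrins and other fibronectin receptors 14 rose and 1 fell (median 0.35). ITGA2, a collagen-binding integrin chain, measured 295, 244, 119 and 140.5 CPM in FN1-high cells, against 87.8, 105, 54.9 and 45.8 CPM in FN1-low cells (log2 fold change 1.44 ± 0.11 (SE), adjusted p = 9e-10). ITGB1, the common beta chain of fibronectin and collagen receptors, rose by 0.48, ITGAV by 0.60 and ITGA3 by 0.66. FAP, a membrane protease of activated fibroblasts that is in the receptor and the mesenchymal list, rose by 1.43.

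Among 30 matrix proteases and inhibitors 13 rose and 3 fell. TIMP1, an inhibitor of metalloproteinases, measured 2706 and 2220.2 CPM in the FN1-high cells of the IR libraries, against 1415 and 989 CPM in their FN1-low cells, and 2028 and 1583 CPM, against 1089.8 and 711 CPM, in the UT libraries, with a log2 fold change of 1.04 ± 0.06 (SE), adjusted p = 1.1e-12 that stayed between 0.85 and 1.20 over 17 alternatives. SERPINE2, which inhibits thrombin and urokinase, measured 619.7 and 708 CPM in the FN1-high cells of the IR libraries, against 149 and 161 CPM in their FN1-low cells, and 346 and 402 CPM, against 167 and 138 CPM, in the UT libraries (log2 fold change 1.71 ± 0.21 (SE), adjusted p = 0.0069). SERPINA1, outside that list, the inhibitor of neutrophil elastase, measured 435, 243, 150.1 and 96.9 CPM in FN1-high cells, against 69.5, 36.5, 33.7 and 21.8 CPM in FN1-low cells and rose by 2.47 (adjusted p = 8.8e-14), a call lost among low-cycle cells, where the value was 2.52. PLAT, tissue plasminogen activator, rose by 0.84 and ADAM19 by 1.15.

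MMP3, stromelysin 1, went the opposite way. Its counts were 3, 3, 4 and 3 in the FN1-high cells of IR 1, IR 2, UT 1 and UT 2, against 248, 303, 43 and 26 in the FN1-low cells. MMP3 passed the filter on low counts through the FN1-low sums, so no fold change or p is given. It was not called within UT or for the difference of the effects between IR and UT. The 47 and 44 IR cells of the FN1-low tier with an MMP3 count made up 47 of 124 and 44 of 124 cells, against 3 of 37 and 3 of 37 FN1-high cells.

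Genes of TGF-beta signalling and of the bone lineage were among those that rose. Of 27 TGF-beta targets 11 rose and none fell (median 0.41), the list holding COL1A1 and COL4A1 as well. Within IR 10 of them rose and 1 fell, and within UT 7 rose and 1 fell. Among low-cycle cells 9 of 26 rose and 1 fell (median 0.17). PMEPA1, a TGF-beta-induced feedback inhibitor of SMAD signalling, measured 1047 and 1212 CPM in the FN1-high cells of the IR libraries, against 467 and 483 CPM in their FN1-low cells, and 874 and 831 CPM, against 508 and 451 CPM, in the UT libraries, a log2 fold change of 1.04 ± 0.08 (SE), adjusted p = 9.3e-09. Among ligands, receptors and SMADs 8 of 35 rose and 2 fell. BMPR2, a BMP receptor, rose by 0.97 and SKIL, a SMAD co-repressor that TGF-beta induces, by 0.44, and the ligand TGFB2 fell by 0.66 on the log2 scale. Of 22 osteoblast lineage genes 7 rose and 1 fell. SPARC, osteonectin, measured 1482, 1587, 1320.2 and 1453 CPM in FN1-high cells, against 931, 893, 1119 and 1184 CPM in FN1-low cells and rose by 0.51, SPP1, osteopontin, rose by 0.73, and the bone morphogen BMP2 by 1.25. SPP1 was not called in 4 of 18 alternatives, low-cycle cells among them, and BMP2 in 2 of 18. SPARC was not called in 1 of 17, that with low cells matched on gene counts. The member of the osteoblast lineage list that fell was ATF4 (-0.36), a factor also in the stress response list. Of 21 mesenchymal genes 8 rose and none fell, among them SNAI2 (0.83) and VIM, vimentin (0.39). Of 13 genes of the IGF axis 4 rose, and IGFBP7, a secreted binding protein of senescent and stromal cells, measured 369 and 377 CPM in the FN1-high cells of the IR libraries, against 173 and 111 CPM in their FN1-low cells, and 135 and 206 CPM, against 56.96 and 69.8 CPM, in the UT libraries (log2 fold change 1.42). EGFR, the receptor for EGF family ligands, rose by 1.02 and CCND1, cyclin D1, by 0.50, while 10 of 38 ERK and AP-1 targets rose and 5 fell.

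Many lysosomal genes were higher in FN1-high cells. Of 34 tested, 17 rose and none fell (median 0.35), with 14 higher within IR and 13 within UT. CTSB, the cysteine protease cathepsin B, measured 965 and 999 CPM in the FN1-high cells of the IR libraries, against 398 and 315 CPM in their FN1-low cells, and 534 and 486 CPM, against 236 and 218 CPM, in the UT libraries, a log2 fold change of 1.33 ± 0.08 (SE), adjusted p = 1.6e-11. PSAP, prosaposin, rose by 0.57, CD63, a tetraspanin of late endosomes, by 0.56 and TPP1, a lysosomal peptidase, by 0.65. LAMP1, a major lysosomal membrane protein, measured 279, 419, 239.9 and 303 CPM in FN1-high cells, against 221, 264, 179.6 and 238 CPM in FN1-low cells and rose by 0.45 (adjusted p = 0.00038), and CTSD, the aspartic protease cathepsin D, measured 91.4, 102, 73.1 and 74.04 CPM in FN1-high cells, against 69.1, 66.4, 47.2 and 58.1 CPM in FN1-low cells and rose by 0.50 (adjusted p = 0.0059). Lysosomal promoters often hold E-box words, CACGTG, read by TFEB and related factors. The 250 bases before the RefSeq starts of CTSD (chr11:1763928-1764177, minus strand) and LAMP1 (chr13:113296989-113297238, plus strand) are printed with that word in capitals, chosen after their values were seen as the lysosomal genes with the largest rise among those that held it in the table. Genes on the chromosome that carries CTSB were left out of this choice. LAMP1 had 5 copies and CTSD 1, and 6.34% of the 22114 windows, and 9.32% of those of genes tested, held at least 1. Among low-cycle cells 6 of 32 lysosomal genes rose and none fell (median 0.21), beside 2.93% of all genes.
CTSD: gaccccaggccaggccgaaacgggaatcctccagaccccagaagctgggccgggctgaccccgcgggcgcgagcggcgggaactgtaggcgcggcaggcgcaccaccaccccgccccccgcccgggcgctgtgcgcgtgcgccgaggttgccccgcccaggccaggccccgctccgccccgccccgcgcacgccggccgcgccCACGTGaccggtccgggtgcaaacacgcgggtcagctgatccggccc
LAMP1: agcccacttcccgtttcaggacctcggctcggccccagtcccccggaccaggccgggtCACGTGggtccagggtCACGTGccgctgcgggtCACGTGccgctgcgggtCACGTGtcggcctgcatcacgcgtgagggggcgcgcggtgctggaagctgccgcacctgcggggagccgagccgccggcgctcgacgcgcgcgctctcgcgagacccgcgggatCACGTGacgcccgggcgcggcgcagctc

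Part of the secretory pathway rose by small steps. Of 52 genes of ER entry, folding and export 15 rose and none fell, with a median of 0.14. PDIA6, a disulfide isomerase of the ER, rose by 0.40, COPA, a COPI coat protein, by 0.44, the Golgi tether GOLGB1 by 0.55 and the cargo receptor TMED10 by 0.39.

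Interferon-stimulated and class I genes were also higher. Of 37 interferon-stimulated genes tested 12 rose and none fell (median 0.50), with 12 higher and 1 lower within IR and 5 higher within UT. IFI44 measured 26.9, 39.4, 28.2 and 30.5 CPM in FN1-high cells, against 14.5, 19.2, 6.60 and 5.84 CPM in FN1-low cells and had the largest rise among those named (log2 fold change 1.50 ± 0.25 (SE), adjusted p = 0.00011). HLA-B and HLA-C, antigen-presenting class I heavy chains, rose by 0.46 and 0.63. HLA-C measured 407, 294, 286 and 187 CPM in FN1-high cells, against 251, 163, 184 and 153 CPM in FN1-low cells. These paralogs share sequence, and reads that matched more than 1 gene were not counted, so their separate levels are uncertain. Among low-cycle cells 3 of 34 genes of this list rose, with a median of 0.22, and within IR 4 rose and 1 fell (median 0.06).

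Lens crystallins had the largest fitted fold changes among the genes named, and their counts came from few cells. CRYBA4 had 89, 29, 82 and 5 counts in the FN1-high cells of IR 1, IR 2, UT 1 and UT 2, against 1, 1, 5 and 3 in FN1-low cells, and CRYBB1 had 56, 11, 64 and 7 counts, against 4, 7, 4 and 5. Both genes passed the filter on low counts through the FN1-high sums, so no fold change or p is given. Any CRYBA4 count was seen in 7, 4, 9 and 5 of the 37, 37, 54 and 55 FN1-high cells. Of 21 cells in all with at least 3 CRYBA4 counts and 13 with at least 3 CRYBB1 counts, 10 were the same cells, 8 of them FN1-high, 2 in between and none FN1-low. In IR 2, 1 cell between the tiers alone had 55.4 CRYBB1 counts, against 11 over all FN1-high cells. The genes are neighbours on chromosome 22 with RefSeq starts 3936 bases apart (GRCh38.p14, 26618027 for CRYBB1 on the minus strand and 26621963 for CRYBA4 on the plus strand). CRYGS, on another chromosome, had 34, 15, 21 and 74 counts, against 6, 5, 21 and 9, and 6 of the 10 cells had at least 3 of its counts too.

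Other large rises came from genes of varied function. SLC5A3, the myo-inositol transporter, measured 278 and 297 CPM in the FN1-high cells of the IR libraries, against 77.6 and 82.4 CPM in their FN1-low cells, and 255 and 275 CPM, against 68.1 and 91.97 CPM, in the UT libraries, and its log2 fold change of 1.79 ± 0.09 (SE), adjusted p = 3.8e-13 came with like levels in the libraries of both treatments. GASK1B, a Golgi-associated kinase-like protein, rose by 1.89, the membrane protein TMEM200A by 1.87, the long non-coding RNA LINC01711 by 2.09, and FMN1, a formin, by 1.93. FMN1 measured 62.1, 64.8, 12.8 and 14.2 CPM in FN1-high cells, against 8.11, 17.3, 5.56 and 7.38 CPM in FN1-low cells. Of 17 neural and SOX genes 5 rose and none fell, among them the chloride channel family member TTYH1 (1.70) and the transcription factors SOX4 (1.06), SOX5 (1.17) and SOX6 (1.00).

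Cell cycle lists held the most genes that fell. Of 60 S phase genes 36 fell and none rose (median -0.59), and of 65 G2 and M phase genes 48 fell and none rose (median -0.92). BIRC5, survivin, measured 37.5 and 20.3 CPM in the FN1-high cells of the IR libraries, against 90.98 and 103 CPM in their FN1-low cells, and 91.1 and 59.9 CPM, against 173 and 137 CPM, in the UT libraries, a log2 fold change of -1.30 ± 0.15 (SE), adjusted p = 5e-06. NUF2, a kinetochore protein, fell by 1.24, KIF23, a cytokinesis kinesin, by 0.92, GAS2L3 by 1.40, and POLQ, a repair polymerase, by 1.45. In S phase, RRM1 fell by 0.77, the replicative helicase subunit MCM7 by 0.74 and PCNA, the replication clamp, by 0.54. PCNA measured 128, 119, 136 and 231 CPM in FN1-high cells, against 186, 206, 180.2 and 317 CPM in FN1-low cells. MKI67, the proliferation marker Ki-67, measured 102, 26.7, 293 and 261 CPM in FN1-high cells, against 192, 188, 512 and 419.8 CPM in FN1-low cells, lower in every library, but the size varied and the call failed (log2 fold change -1.05 ± 0.35 (SE), adjusted p = 0.16). Among low-cycle cells 11 of 60 G2 and M phase genes and 5 of 59 S phase genes fell, and within IR 3 S phase genes rose and 2 fell there (median 0.20).

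Promoters of G2 and M phase genes often hold a cell cycle genes homology region, CHR, with the word TTTGAA, read by the DREAM and MuvB complexes. It was searched on both strands, so it also appears as its reverse complement. The bases before the starts of DLGAP5 (chr14:55191586-55191835, minus strand), a spindle protein that fell by 1.25, and DEPDC1 (chr1:68497083-68497332, minus strand), which fell by 1.14 on the log2 scale, are shown with this word in capitals, chosen after their values were seen as the list members with the largest fall among those that held it in the table. Genes on the chromosome that carries CTSB were left out of this choice as well. The word lay in 14.03% of the 22114 windows and in 7.92% of those of genes tested. DLGAP5 measured 33.97, 19.1, 89.8 and 78.4 CPM in FN1-high cells, against 78.6, 103, 169 and 163 CPM in FN1-low cells.
DLGAP5: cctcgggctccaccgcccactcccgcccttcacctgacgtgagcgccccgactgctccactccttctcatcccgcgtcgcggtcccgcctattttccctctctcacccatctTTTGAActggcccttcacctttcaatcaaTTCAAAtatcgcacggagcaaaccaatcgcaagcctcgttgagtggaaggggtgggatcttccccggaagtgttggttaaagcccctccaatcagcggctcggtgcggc
DEPDC1: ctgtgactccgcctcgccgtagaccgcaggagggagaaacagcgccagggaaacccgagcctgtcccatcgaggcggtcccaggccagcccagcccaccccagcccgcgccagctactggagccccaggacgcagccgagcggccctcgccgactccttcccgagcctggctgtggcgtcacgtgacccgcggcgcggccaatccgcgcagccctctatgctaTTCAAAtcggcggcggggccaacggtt

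Among the genes that fell were MYC, a growth-promoting transcription factor, and some targets of YAP, a co-activator held back by the Hippo pathway. MYC measured 22.3 and 24.1 CPM in the FN1-high cells of the IR libraries, against 84.6 and 90.6 CPM in their FN1-low cells, and 19.2 and 23.96 CPM, against 32.6 and 60.3 CPM, in the UT libraries, a log2 fold change of -1.55 ± 0.18 (SE), adjusted p = 9.3e-07 that held among low-cycle cells (-1.27). AREG, amphiregulin, an EGFR ligand, measured 12.9, 10.2, 10.3 and 9.80 CPM in FN1-high cells, against 58.9, 57.6, 15.98 and 15.4 CPM in FN1-low cells and fell by 1.70. Of 25 YAP and TEAD targets 9 fell and 1 rose (median -0.33), and among low-cycle cells 5 of 24 fell (median -0.13), with no call within UT. CCN1, a secreted matricellular protein, measured 166, 150.0, 146 and 148 CPM in FN1-high cells, against 388, 290.4, 213 and 221 CPM in FN1-low cells (log2 fold change -0.83 ± 0.10 (SE), adjusted p = 3.8e-06), CRIM1 fell by 0.81 and WWC1, an upstream regulator of the pathway, by 1.07. CAV1, the caveolar coat protein, measured 351, 219.9, 387 and 352 CPM in FN1-high cells, against 611, 531, 678 and 582 CPM in FN1-low cells (log2 fold change -0.89 ± 0.08 (SE), adjusted p = 1.8e-08) and PDLIM1, an actin-associated adaptor, fell by 1.25, while over the 55 focal adhesion and actin genes 13 rose and 7 fell. MITF, the melanocyte and lysosomal transcription factor, fell by 1.75, CRABP2, a retinoic acid carrier, by 1.74, and ADORA2B, an adenosine receptor, by 1.43. CFAP58 fell by 1.58, SNAPC1, a subunit of the small nuclear RNA activating complex, by 1.40, ANKRD33B by 1.45 and the transcribed pseudogene SFTA1P by 1.76. SFTA1P measured 32.8, 26.7, 26.9 and 8.71 CPM in FN1-high cells, against 113, 114, 55.6 and 41.8 CPM in FN1-low cells.

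Biosynthetic lists were lower by smaller steps. Of 29 genes of the integrated stress response 7 fell and none rose (median -0.33), among them ATF4 and MTHFD2, a mitochondrial folate enzyme (-0.58). Of 24 cholesterol synthesis genes 6 fell, with HMGCS1 at -0.50 and LSS at -0.44, and none rose, beside 9.77% of all genes that fell. Within IR 6 of the 24 fell and within UT 1, beside 7.91% and 3.05% of all genes. LSS was not called in 9 and HMGCS1 in 2 of 18 alternatives. Of 71 cytosolic ribosomal protein genes 11 fell and none rose, at a median of -0.06, beside 9.77% of all genes that fell. Within IR 9 of the 71 fell and within UT none did, and the median in UT 1 was 0.01. The glycolytic enzymes LDHA and ENO1 fell by 0.65 and 0.29, while 4 of 29 hypoxia targets rose and 5 fell. Of 13 mitochondrially encoded genes 6 rose and 1 fell, with MT-ND2 at 0.39 and MT-ND6, from the other strand, at -0.39. The rises of MT-ND1 and MT-CO3 (0.41 and 0.39) turned to -0.02 and -0.05, past no threshold, when the 15% of cells lowest in FN1 were used as FN1-low. MT-ND2 was not called in that setting either, and its values went down to 0.04 over the alternatives. With equal numbers of cells or low cells matched on gene counts, MT-ND1, MT-CO3 and MT-ND2 all lost their calls.

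**Figure D3:**
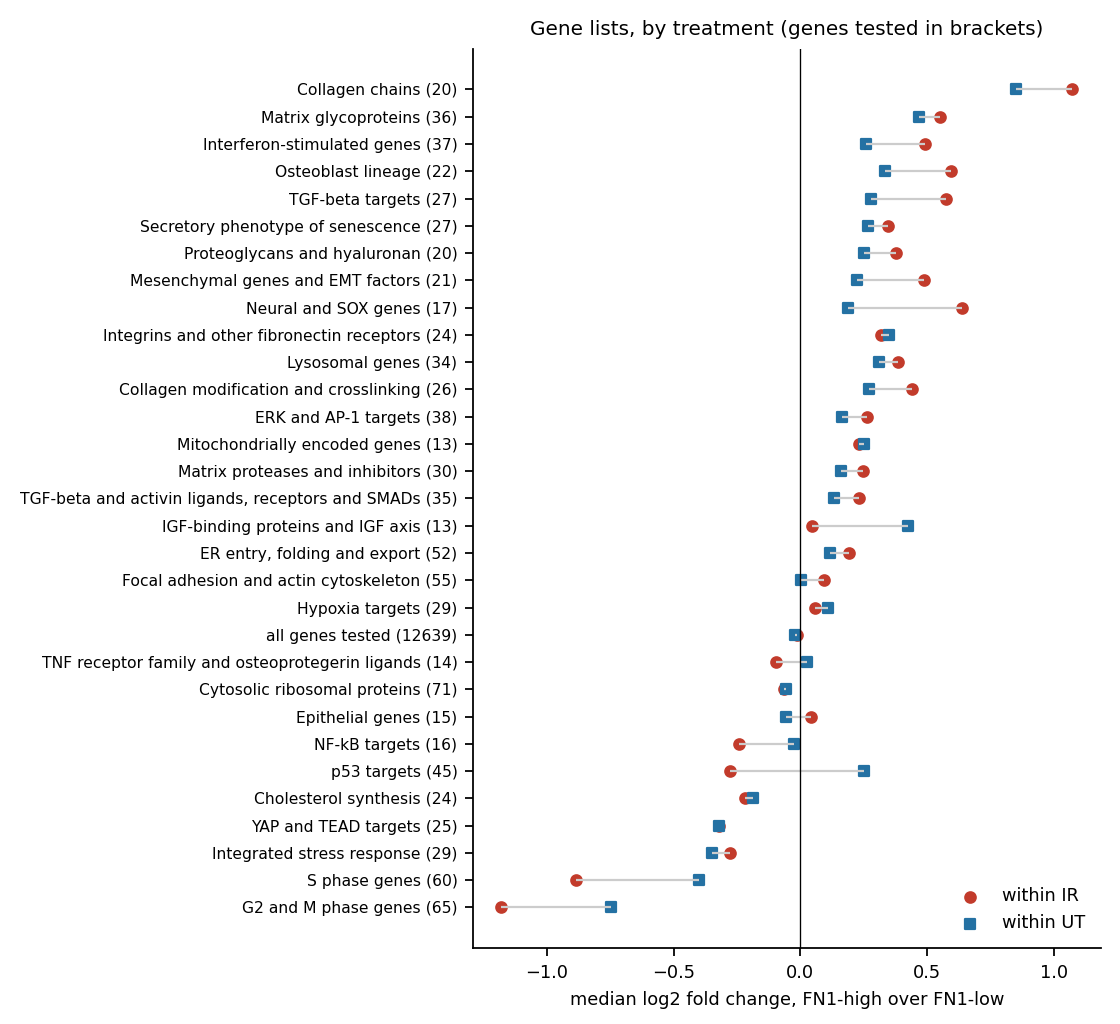
Median log2 fold change, FN1-high over FN1-low (horizontal axis), of each gene list with at least 10 genes tested, within IR (red circles) and within UT (blue squares). Collagen chains (1.07 in IR, 0.85 in UT) and G2 and M phase genes (-1.18 and -0.75) stand at the ends, and the p53 targets lie on opposite sides of 0.

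Within IR, FN1-high cells had 918 genes higher (7.26%) and 1000 lower (7.91%), and within UT 384 higher (3.04%) and 386 lower (3.05%), or 15.2% of genes in either direction within IR and 6.09% within UT. The counts in UT leaned on both of its libraries, with 43 and 9 calls without UT 1 and 39 and 4 without UT 2, where a single UT library had to borrow its spread from the others, and those in IR were 547 and 645 without IR 1 and 521 and 481 without IR 2. Leaving out IR 2 gave 688 and 697 within UT. With the experiment number as a block on the effect, 508 genes were higher and 603 lower within UT. Both treatments shared 544 called genes, 28.4% of the IR calls and 70.6% of the UT calls, and 540 of them had the same sign. Over the 8137 genes averaging 20 CPM or more the IR and UT effects had a Pearson correlation of 0.66 and the same sign in 72.4%, a description over genes, which are not independent replicates. Of the 544 genes, 367 had the larger effect in IR. In IR the FN1-high and FN1-low cells also lay farther apart in cycle genes and in FN1 itself. The FN1 gap was 16.6-fold and 14.9-fold in IR, against 14.5-fold and 11.8-fold in UT. The parts of these gaps in the larger effects were not tested.

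The test of the difference itself called 54 genes (0.427%), 23 with a higher effect in IR (0.182%) and 31 with a lower one (0.245%). With the experiment number as a block it called 50 and 85. Without UT 1 it called 2 and none (652 genes at an unadjusted p under 0.05), without UT 2 it called 6 and 2, without IR 1 10 and 47, and without IR 2 54 and 60, and DESeq2 called 5 and 1.

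IGFBP5, an IGF-binding protein held in the matrix, had a difference that was called in all 18 alternatives (1.39 to 2.47). IGFBP5 measured 915 and 832 CPM in the FN1-high cells of the IR libraries, against 66.6 and 83.7 CPM in their FN1-low cells, and 893 and 967 CPM, against 305 and 338 CPM, in the UT libraries. FN1-high cells had like levels in all 4 libraries, and the treatments differed in FN1-low cells, which were lower in IR. Its log2 fold change was 3.54 ± 0.11 within IR and 1.53 ± 0.09 within UT, a difference of 2.01 ± 0.14 (SE), adjusted p = 2e-12. MIAT, a long non-coding RNA, showed the same arrangement, with 182 and 131 CPM in the FN1-high cells of the IR libraries, against 18.7 and 21.1 CPM in their FN1-low cells, and 139.8 and 125 CPM, against 70.2 and 56.3 CPM, in the UT libraries (difference 1.88 ± 0.24 (SE), adjusted p = 1.4e-05). L1CAM, a neural adhesion molecule, differed by 1.30 ± 0.17 (SE), adjusted p = 1.4e-05 and OSBPL10, a lipid-binding protein, by 1.02. SERPINE2 and SPARC also rose more within IR (differences 0.80 and 0.48, adjusted p of 0.0089 and 0.035). TNFRSF11B differed by 1.17 ± 0.25 (SE), adjusted p = 0.019, and 10 of 18 alternatives did not call it, with values from 0.16 to 1.78.

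Genes that p53 activates gave different counts within IR and within UT. Of 45 p53 targets tested 3 rose and 13 fell in the FN1-high cells within IR (median -0.28), beside 7.26% and 7.91% of all genes. The 3 rises thus lay near the share of all genes. Within UT 5 rose and none fell (median 0.25), beside 3.04% and 3.05% of all genes. Among the 31 genes with a lower effect in IR, 0.245% of all genes, 5 were p53 targets. Among low-cycle cells none rose and 13 of 45 fell within IR (median -0.55), and 1 rose and none fell within UT (median 0.06). The shares of all genes there were 3.66% and 3.56% within IR and 1.41% and 1.32% within UT. CDKN1A, the p21 cell cycle inhibitor, measured 711 and 878 CPM in the FN1-high cells of the IR libraries, against 1034 and 921 CPM in their FN1-low cells, and 399 and 405 CPM, against 272 and 242 CPM, in the UT libraries. It was lower in FN1-high cells of both IR libraries and higher in those of both UT libraries. The log2 fold changes were -0.30 ± 0.09 (SE), adjusted p = 0.025, within IR and 0.65 ± 0.11 (SE), adjusted p = 7.8e-05, within UT, a difference of -0.95 ± 0.14 (SE), adjusted p = 0.00024. The call of the difference was lost in 6 of 17 alternatives, among them leaving out UT 1 or UT 2, DESeq2 and equal numbers of cells, with values from -1.21 to -0.74. Among low-cycle cells the difference was -1.05, made of -0.88 within IR and 0.17 within UT (adjusted p of 1.5e-06, 1.5e-11 and 0.61), so the UT rise did not pass there. In IR libraries CDKN1A neared the count ceiling.

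GDF15, a stress cytokine and p53 target, measured 49.2 and 77.5 CPM in the FN1-high cells of the IR libraries, against 203 and 236 CPM in their FN1-low cells, and 8.98 and 18.5 CPM, against 9.38 and 16.6 CPM, in the UT libraries, with a difference of -1.89 ± 0.41 (SE), adjusted p = 0.019. In UT both tiers had few counts. MDM2, the p53 ubiquitin ligase, measured 165, 248, 98.8 and 142 CPM in FN1-high cells, against 264, 294, 78.5 and 109 CPM in FN1-low cells (difference -0.80 ± 0.19 (SE), adjusted p = 0.045). GADD45A and FDXR, named after their values were seen, were the other p53 targets with a lower effect in IR, at -1.08 and -1.56. Some targets rose in both treatments, such as TP53INP1 (0.63 within IR, 1.14 within UT). TP53BP1, the break-repair factor the study followed in single cells, had a log2 fold change of 0.33 ± 0.11 (SE), adjusted p = 0.044, and 13 of 18 alternatives did not call it, among them DESeq2, low-cycle cells, the experiment number as a block and leaving out any 1 library. With that block TGFBI joined the genes with a lower effect in IR, at -1.14 against the same value and an adjusted p of 0.28 without it.

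Other genes with a lower effect in IR were of mixed kinds. KRTAP2-3, a keratin-associated protein of a multicopy family whose reads may be shared with its copies, measured 141, 99.1, 47.5 and 34.8 CPM in FN1-high cells, against 288, 183, 34.03 and 13.8 CPM in FN1-low cells (difference -1.80). ARL14 and UNC5B-AS1, a transcript antisense to UNC5B, differed by -2.89 and -2.41 at mean levels of 19.1 and 21.1 CPM, and whether the counting used strand is not given in the sources used here, so reads of UNC5B may be included. BEX1 fell within IR (-1.08) and had -0.14 within UT. LUM, lumican, a small proteoglycan listed among markers of other cell types, was the 1 of 6 tested genes of that list that was called over the 4 libraries, and it measured 65.6, 99.1, 73.1 and 90.4 CPM in FN1-high cells, against 54.7, 62.3, 21.5 and 27.99 CPM in FN1-low cells (difference -1.24).

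**Figure D4:**
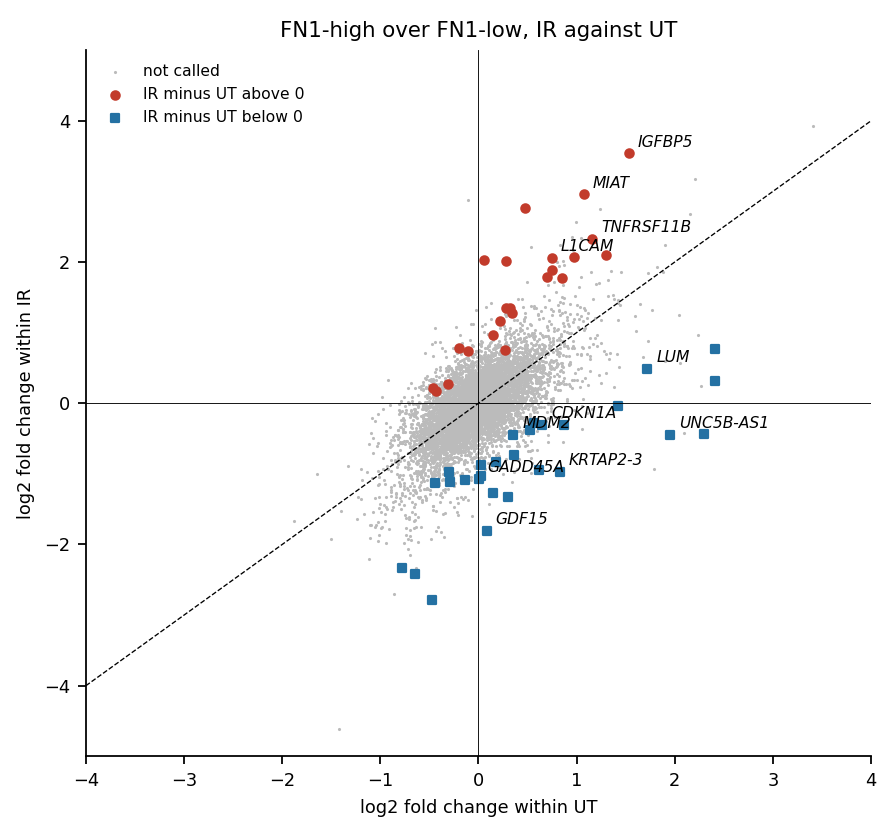
Log2 fold change, FN1-high over FN1-low, within IR (vertical axis) against that within UT (horizontal axis) for genes averaging 20 CPM or more, of which 2 lie outside the axes. Called differences are red where the IR effect is higher and blue where it is lower, and CDKN1A, KRTAP2-3 and MDM2 lie where UT is above 0 and IR below.

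Along the FN1 order of all cells of a library, the genes changed mostly in the upper deciles. In deciles 1, 5, 9 and 10 of cells ordered by FN1, TIMP1 had 1462, 1336, 2168 and 3187 CPM in IR 1 and 691, 722, 1165 and 1719 CPM in UT 2. COL6A3 stayed at or below 65.2 CPM in deciles 1 to 6 of every library and reached 387, 295, 170 and 149 CPM in decile 10 of IR 1, IR 2, UT 1 and UT 2. NUF2 was lowest in decile 10, with 6.59, 8.78, 20.8 and 41.4 CPM, against 47.9, 35.2, 42.98 and 69.4 CPM in decile 9. Over 3483 genes averaging 1 count or more per cell in each library, the mean within-library Spearman correlation with FN1 over cells was among the highest for IGFBP5 (0.45), TIMP1 (0.43), COL1A1 (0.40), PMEPA1 (0.37), SERPINE2, ITGB1, COL4A2, PXDN and CTSB, and lowest for CFL2, a muscle cofilin (-0.31), the cytochrome CYCS, PA2G4, LDHA and CCT5. Only 15 genes exceeded 0.3 and 1 lay below -0.3. Cells of a library differ in depth and in cycle transcripts, and the part of either in these correlations was not tested. FN1 itself had a rank correlation with gene counts per cell of 0.09, -0.07, -0.06 and -0.03 in IR 1, IR 2, UT 1 and UT 2.

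**Figure D5:**
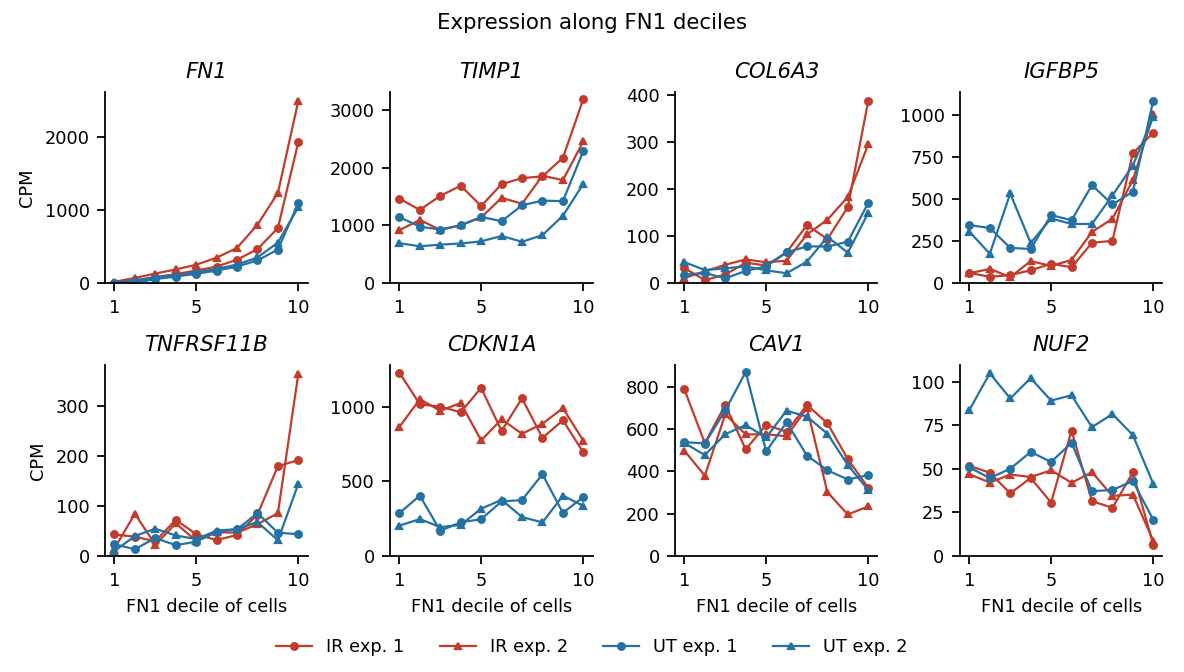
CPM (vertical axes) of 8 genes in deciles of each library's cells ordered by FN1 (horizontal axis, lowest decile at 1), with IR in red and UT in blue. TIMP1, COL6A3 and IGFBP5 are highest in the top decile of every library, NUF2 is lowest there, and CDKN1A in IR lies above UT in every decile.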

How the data were processed

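Single U-2 OS cells of 4 libraries (2 IR, 2 UT) were profiled by SORT-seq, in which cells are sorted 1 to a well. The authors mapped reads to GRCh38 with STARsolo, without introns and without reads matching several genes. The deposited matrices hold expected counts per gene and cell, corrected by the authors for collisions among 4096 molecular identifiers of 6 bases and written with 3 significant digits. Spike-ins (92) were left out of gene counts and gene tests, no cell was removed and no doublet caller was run.

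Counts were summed per library and FN1 tier, rounded, and tested with edgeR 4.0.16 (TMM, filterByExpr, quasi-likelihood test, robust) in R 4.3.3, with library as block and the state effect shared (3 residual degrees of freedom) or separate per treatment (2). FN1 was left out. DESeq2 1.42.0 was an alternative, beside 17 others. The method was tested on simulated data. CPM are TMM-scaled. Named genes were FN1, TNFRSF11B, TGFBI, the 12 largest called rises and falls at a mean of at least 20 CPM with 1 direction in all libraries, up to 4 called members of each of 31 lists, 5 differences each way, the 10 highest and 5 lowest FN1 correlations, and CDKN1A, MDM2, GDF15, MKI67, PCNA and TP53BP1, some of which are not reported here; promoters came from RefSeq, which matched 54.1% of genes tested, so no motif share was computed over lists. Tiers, members and lists were chosen with earlier results of these data known. The titles mark IR and UT libraries of 1 experiment; the deviations of experiment 1 from the mean effect correlated at 0.07 between treatments over 8137 genes. Depth was 5736340 to 6810080 counts per library. By the labels the 2 libraries of each treatment are separate experiments, and nothing shows more than 2 cultures per treatment. Intervals cover counting error only. The study states no test for this comparison.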

Additional observations from a re-analysis of the deposited data

Results flagged for a closer look

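Each gene here had an effect of the FN1-high state that differed between IR and UT by the test of the difference itself, given as log2 IR minus UT. Higher effects in IR were IGFBP5 at 2.01, MIAT at 1.88, L1CAM at 1.30, TNFRSF11B at 1.17 and OSBPL10 at 1.02. IGFBP5, MIAT and L1CAM were higher in FN1-high cells within each treatment. Lower effects in IR were ARL14 at -2.89, UNC5B-AS1 at -2.41, KRTAP2-3 at -1.80, CDKN1A at -0.95 and BEX1 at -0.95. With 2 libraries per treatment no group was large enough to be examined for a single outlying library.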

How the results depend on the processing

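Of 131 named genes called over the 4 libraries, 64 kept their call in every alternative, and 2 changed sign, MT-ND1 (-0.025) and MT-CO3 (-0.045), with the lowest 15% of cells as FN1-low. Counts below give genes higher, then lower, in FN1-high cells over all libraries, then within IR, within UT, and for the difference. DESeq2 gave 469 and 448, 193 and 178, 76 and 15, and 5 and 1. Thinning cells to 8000 UMIs gave 526 and 510, 447 and 436, 228 and 204, and 17 and 10. Low-cycle cells gave 323 and 334, 403 and 392, 156 and 146, and 51 and 45. Equal numbers of cells gave 699 and 725, 523 and 552, 280 and 161, and 5 and 9. Low cells matched on gene counts gave 655 and 654, 509 and 483, 211 and 144, and 9 and 14. These settings other than DESeq2 use fewer counts. With the lowest 15% as FN1-low the difference gave 45 and 40, and the mean log2 ratio of medians was 0.12 for gene counts per cell and -0.10 for the mitochondrial share, against -0.12 and 0.31. The lower differences were 54 with no filter on low counts, 65 with the top 10% as FN1-high, 10 with the top 25%, and 16 without genes near the count ceiling. With no replicate block at all (no library term) the counts were 459 and 426, 157 and 144, 17 and 0 (1207 genes at an unadjusted p under 0.05), and 1 and 0 (451), all by edgeR. With the experiment number as a replicate block on the effect they were 997 and 1168, 1056 and 1238, 508 and 603, and 50 and 85, on 1 residual degree of freedom for the difference, and among the named genes called over all libraries only TP53BP1 lost its call. Leaving out 1 library gave 696 to 917 and 717 to 957 over all libraries, 521 to 633 and 481 to 645 within IR, 39 to 688 and 4 to 697 within UT, and 2 to 54 and 0 to 60 for the difference. The cause of these shifts was not tested. RLE size factors and observed UMIs left every count within 1.5 times. With 2 libraries per treatment the difference is the least secure result, and genes under about 20 CPM rest on few counts.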

Other observations

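IGFBP5, MIAT and L1CAM were called within IR and within UT, all higher in FN1-high cells, yet not by the fit with 1 shared effect (adjusted p of 0.088, 0.12 and 0.099), in which the gap between the treatments counts as spread. TNFSF15, a TNF family ligand, was the 1 of 14 genes of the TNF receptor and ligand list to rise (1.02), and NFKBIZ the 1 of 16 NF-kB targets (0.52), shares at or below the 8.6% of all genes that were higher. TNFSF15 was not called in 8 and NFKBIZ in 9 of 18 alternatives. Epithelial genes were mixed, with 2 of 15 higher and 4 lower, among them JUP, plakoglobin, at 0.98 and PKP2, plakophilin 2, at -0.99. HTRA1, a secreted serine protease, rose by 1.73. It was not called in 3 of 16 alternatives, low-cycle cells among them, with values from 0.82 to 1.98. Of the 27 tested genes that senescent cells secrete, a list sharing TIMP1, IGFBP7 and MMP3 with lists above, 9 rose and 4 fell (median 0.37).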
